A study of Mus musculus with 11 samples.

Results

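The genes described here are 10 mouse embryonic stem cell (ESC) markers: Dppa2, Dppa3, Dppa4, Dppa5a, Nr0b1, Prdm14, Tcl1, Utf1, Fbxo15 and Tdh. They were chosen by their symbols, and each has 1 row among the 23284 genes of every library. The values came from 11 RNA-seq libraries in 5 groups. Wild-type (WT) ESCs and ESCs without functional Tet1, Tet2 and Tet3 (Tet triple knockout, TKO, a line generated before the study) were each harvested either untreated (0 h) or following 4 h with α-amanitin at 10 µg/ml, a toxin that blocks RNA polymerase II. Each of these 4 groups had 2 libraries of total RNA depleted of ribosomal RNA, and the remaining group held 3 libraries of polyadenylated RNA from WT ESCs. The labels give no drug or time for the polyA group. All cells grew on gelatin in medium with serum and leukemia inhibitory factor. The study describes the α-amanitin replicates as biological, without saying what separates them, and the number of clones behind the TKO group is not given in the sources used here. p-values measure the spread between these libraries only.

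These genes are read out as markers because they are transcribed in the pluripotent cells of the early embryo, in ESCs and in part in germ cells, and are shut down as cells differentiate. Dppa2 and Dppa4 are neighbouring genes whose SAP-domain proteins act together on chromatin. Dppa3, also called Stella, protects the maternal genome from demethylation in the zygote, and Dppa5a, also called Esg1, encodes a protein with an RNA-binding KH domain. Nr0b1, also called Dax1, is an orphan nuclear receptor, Prdm14 is a zinc finger protein needed for germ cell formation, and Utf1 is a chromatin-bound protein. Tcl1 binds and activates Akt kinases, Fbxo15 is an F-box protein that can join an SCF ubiquitin ligase, and Tdh is the mitochondrial threonine dehydrogenase that mouse ESCs use to feed glycine and acetyl-CoA synthesis. Tet enzymes oxidise 5-methylcytosine, which in mammalian DNA lies mostly at CG dinucleotides.

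Levels are given as TPM, which is corrected for transcript length, and scaled TPM is the deposited TPM divided by a size factor for each library. The ribodepleted libraries held 25507874 to 29781366 recovered reads and the polyA libraries 72639837 to 82129168. No member had fewer than 323 reads in any library. Tet1 lay between 124 and 143 scaled TPM in the WT libraries at 0 h and between 29.9 and 30.2 in TKO, and Tet2 between 48.1 and 55.5 in WT and between 7.17 and 7.73 in TKO. Tet3 was under 2 scaled TPM in both genotypes and did not separate them. The 5 listed ESC markers (Pou5f1, Sox2, Nanog, Zfp42 and Esrrb) were detected in every group, with summed levels of 2125 to 2172 scaled TPM in WT at 0 h and 1402 to 1405 in TKO. Among these, Zfp42 was at 497 and 482 scaled TPM in WT and 117 and 113 in TKO at 0 h. Pou5f1 averaged 1154 in WT and 913 in TKO at 0 h, Sox2 287 and 226, and Esrrb 180 and 107. Nanog differed in the other direction, at 38.1 in WT and 42.7 in TKO. The summed fibroblast markers ranged from 8.99 to 15.4 over the 8 libraries and those of primitive endoderm from 2.12 to 4.65. Trophectoderm markers summed to between 3.04 and 3.82 in WT and 9.88 and 11.2 in TKO, with Plac1 at 0.293 in WT and 5.47 in TKO at 0 h. The sums ranged from 33.3 to 40.2 for neural progenitor markers and from 15.0 to 21.4 for those of primed epiblast. Single members of both lists moved in opposite directions at 0 h. Olig2 averaged 18.0 in WT and 0.0397 in TKO, and Nes 17.4 and 30.2. These are ribodepleted WT libraries: in the WT polyA libraries Olig2 was also very low and Zfp42 also lower, as given below. Of the primed epiblast markers, Fgf5 averaged 0.390 in WT and 1.99 in TKO, and Pou3f1 6.76 and 10.1. Otx2 averaged 9.95 and 7.26, and T 1.67 and 1.18. The part of these markers in the changes below was not tested.

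Promoter windows from 250 bases before to 50 bases after the annotated RefSeq start are shown for 3 members. They give the sequence around these starts. Windows of the other members were not examined here, which does not mean that RefSeq holds none for them. Capitals mark each CG, and the coordinates are from an exact match to NCBIM37, the assembly also called mm9.
Nr0b1, chrX:83436864-83437163, plus strand: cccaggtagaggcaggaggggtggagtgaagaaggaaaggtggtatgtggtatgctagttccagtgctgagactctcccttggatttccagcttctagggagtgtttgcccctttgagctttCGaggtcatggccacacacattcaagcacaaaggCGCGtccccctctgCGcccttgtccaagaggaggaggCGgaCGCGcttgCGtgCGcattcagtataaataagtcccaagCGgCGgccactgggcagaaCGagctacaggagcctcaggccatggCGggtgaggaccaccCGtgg
Tcl1, chr12:106460898-106461197, minus strand: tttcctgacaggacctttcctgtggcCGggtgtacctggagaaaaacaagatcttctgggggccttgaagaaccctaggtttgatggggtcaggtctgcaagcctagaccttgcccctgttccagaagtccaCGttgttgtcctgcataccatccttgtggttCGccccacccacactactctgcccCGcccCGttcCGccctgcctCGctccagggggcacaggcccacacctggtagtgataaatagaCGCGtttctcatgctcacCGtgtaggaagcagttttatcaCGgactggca
Utf1, chr7:147129505-147129804, plus strand: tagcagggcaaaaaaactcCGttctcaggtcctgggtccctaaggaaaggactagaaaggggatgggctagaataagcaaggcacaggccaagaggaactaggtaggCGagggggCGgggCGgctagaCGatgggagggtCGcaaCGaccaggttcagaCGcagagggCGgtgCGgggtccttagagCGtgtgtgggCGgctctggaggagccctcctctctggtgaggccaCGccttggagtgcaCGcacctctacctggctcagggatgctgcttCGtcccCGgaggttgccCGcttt
Utf1 had 17 CG, Nr0b1 14 and Tcl1 11, against a median of 7 (quartiles 3 and 20) over 32851 RefSeq windows of the same length, of which 94.6% held at least 1. None of the 3 windows held ATGCAAAT on either strand, the octamer bound by POU factors, which was present in 1.74% of windows. TATAAA was found once, in the Nr0b1 window, and in 13.6% of all windows on either strand. These counts describe the letters alone, since methylation was not analysed here.

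In WT ESCs at 0 h the members spanned a wide range. Dppa5a was the highest, at 1589 and 1616 deposited TPM, and ranked 69 among all genes. Tdh followed at 660 and 653 TPM. Fbxo15 (206 and 199 TPM) and Nr0b1 (207 and 198 TPM) came next, and their libraries overlapped. Below them lay Dppa4 at 170 ± 2.65, Utf1 at 129 ± 3.74 and Dppa3 at 116 ± 4.44 TPM (SD, n = 2), which did not overlap. Dppa2 (87.6 and 87.2 TPM) could not be ranked against Tcl1 (89.1 and 82.4 TPM). Prdm14 was the lowest at 11.0 and 10.5 TPM, above 35.6% of the genes with more than 1 TPM, whereas every other member was above at least 83.9% of them.

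**Figure D1:**
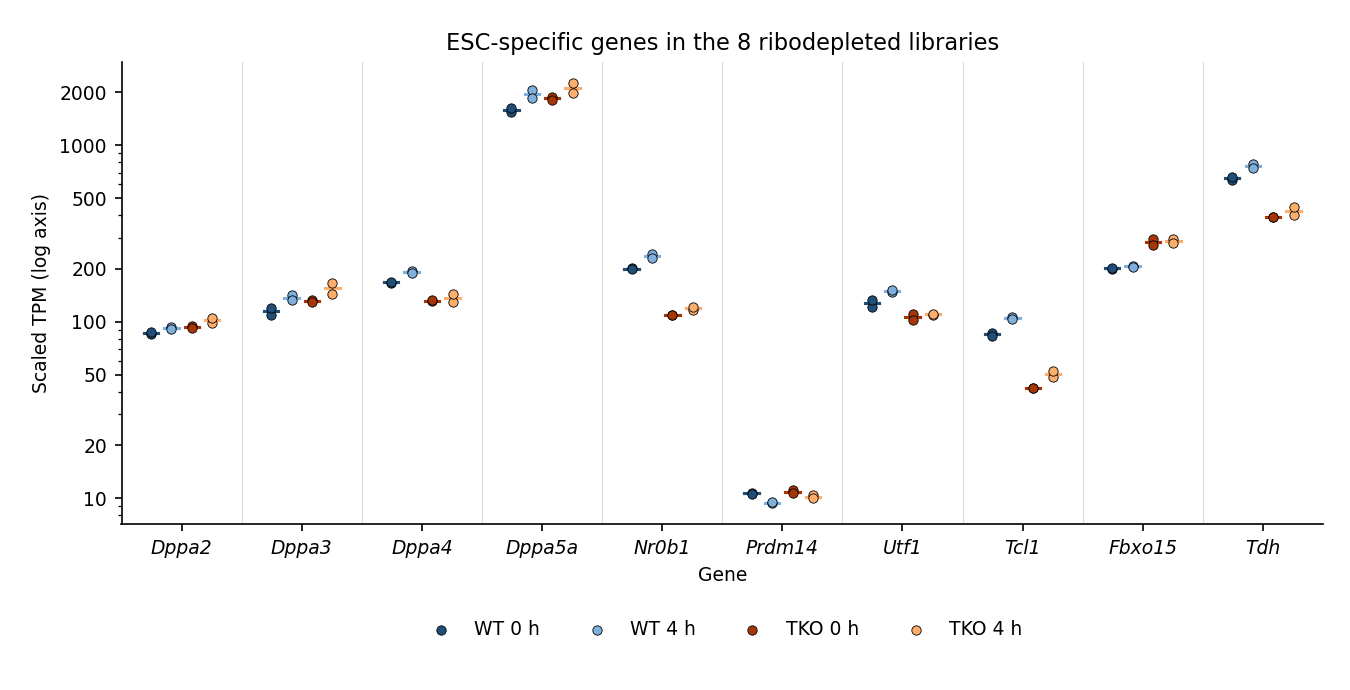
Scaled TPM of the 10 genes (log axis) in the 8 ribodepleted libraries, with 1 point per library and a short line at each group mean. Nr0b1, Tcl1 and Tdh lie lower in the TKO libraries than in all WT libraries, Fbxo15 lies higher, and Prdm14 stays near 10 scaled TPM.

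To ask how these markers differ between the genotypes, TKO was compared with WT at 0 h. The TKO cells are a line made earlier, so the loss of Tet cannot be told apart from other differences between the lines. Below, fell and rose mean lower and higher in TKO than in WT. Nr0b1, Tcl1 and Tdh fell, Dppa4 and Utf1 fell by less, and Fbxo15 rose. A gene was called when its limma adjusted p (Benjamini-Hochberg over 12467 tested genes) was under 0.05 and the groups differed by more than 1.5-fold, measured as log2(scaled TPM + 1). All 10 members were tested. Of these 3 were called lower, against 5.45% of all tested genes, and 0 were called higher, against 10.4%. By adjusted p alone 5 members were lower (28.3% of all genes) and 2 higher (27.8%). Over all tested genes 65.7% of the calls were higher in TKO, 75.8% with deposited TPM and 56.7% with quantile normalisation. Members had a median change of -0.11 and all tested genes one of -0.020. In 5 members every TKO library was lower than every WT library, as in 42.7% of all tested genes. In the other 5 every one was higher, as in 39.0%. In bulk RNA, fewer cells that express a gene and less of its RNA per cell cannot be told apart.

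Among the nuclear regulators, Nr0b1 changed most. It was at 201 and 199 scaled TPM in WT and at 109 in both TKO libraries. Every TKO library was below every WT library, and the log2 change was -0.87 (95% interval -0.97 to -0.77, limma adjusted p = 1.47e-06), a 1.83-fold lower level. Utf1 was at 122 and 133 scaled TPM in WT and at 111 and 102 in TKO. Its groups did not overlap either, but the difference was smaller (log2 change -0.26, 95% interval -0.39 to -0.13, limma adjusted p = 0.00435) and under the fold limit. Prdm14 was at 10.7 and 10.6 scaled TPM in WT and at 11.1 and 10.7 in TKO. Its interval of -0.11 to 0.17 on the log2 scale leaves room for a small change in either direction.

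The genes for signalling, protein turnover and metabolism moved in opposite directions. Tcl1, the Akt coactivator, was at 86.4 and 83.1 scaled TPM in WT and at 42.0 and 42.4 in TKO. This 1.98-fold lower level (log2 change -0.99, 95% interval -1.10 to -0.87, limma adjusted p = 1.68e-06) was the largest change among the members. Tdh was at 639 and 658 scaled TPM in WT and at 393 in both TKO libraries, 1.65-fold lower (log2 change -0.72, 95% interval -0.86 to -0.59, limma adjusted p = 1.81e-05). A processed transcript, Gm17232, is annotated on the other strand over exons of Tdh (chromosome 14, 64111184 to 64127929, minus strand), and the strand setting of the counting is not given in the sources used here, so reads of the pair may be mixed. Fbxo15 was at 200 and 201 scaled TPM in WT and at 296 and 273 in TKO. It was the only member to rise by over 1.4-fold (log2 change 0.51, 95% interval 0.38 to 0.63, limma adjusted p = 7.56e-05) and stayed under the fold limit with size factors, though not with deposited TPM (0.60) or after quantile normalisation (0.62).

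The 4 Dppa genes did not move together. Dppa4 was at 166 and 169 scaled TPM in WT and at 131 and 132 in TKO. It fell by 0.35 on the log2 scale (95% interval -0.47 to -0.22, limma adjusted p = 7.04e-04). Its neighbour Dppa2 was at 85.0 and 87.9 scaled TPM in WT and at 94.3 and 92.4 in TKO, a change of 0.11 (95% interval 0.0029 to 0.22) that missed the test (limma adjusted p = 0.0752). The genes lie on the same strand of chromosome 16, Dppa4 at 48283848 to 48294405 and Dppa2 at 48310590 to 48319836, with 16185 bases between them. Their ratio within a library does not depend on the scaling by size factors. Dppa2 to Dppa4 was 0.511 and 0.520 in the ribodepleted WT libraries at 0 h and 0.719 and 0.699 in TKO. In the WT polyA libraries it was 0.651, 0.643 and 0.652, so it also differed between the 2 sets of WT libraries. Dppa3 was at 109 and 120 scaled TPM in WT and at 132 and 130 in TKO (log2 change 0.19, limma adjusted p = 0.0525). Dppa5a was at 1541 and 1630 scaled TPM in WT and at 1869 and 1813 in TKO (log2 change 0.22, limma adjusted p = 0.0495). The p-values of both lie beside the threshold and crossed it under several alternatives. The ratio of Dppa5a to Dppa3 was 14.1 and 13.6 in WT and 14.2 and 13.9 in TKO. The genome holds 1 further copy of each transcript at 95% identity or more over at least 80% of its length (Dppa3 97.7%, Dppa5a 96.0%). At 90% identity or more it holds 2 for Dppa3 and 5 for Dppa5a. Their counts are therefore less certain than those of the other 8 members, which had none.

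The same comparison after 4 h of α-amanitin gave the same 3 calls. Nr0b1 was at 242 and 230 scaled TPM in WT and at 117 and 121 in TKO, a log2 change of -0.98 (95% interval -1.08 to -0.88). Tcl1 was at 107 and 103 scaled TPM in WT and at 48.8 and 52.5 in TKO (-1.04, interval -1.15 to -0.93). Tdh was at 779 and 739 scaled TPM in WT and at 404 and 445 in TKO (-0.84, interval -0.97 to -0.71). The groups of all 3 stayed apart, with limma adjusted p-values of 8.23e-07, 1.26e-06 and 7.86e-06. Again 3 members were called lower, against 5.83% of all tested genes, and 0 higher, against 11.0%. By adjusted p alone 5 were lower (30.4% of all genes) and 2 higher (29.0%). Over all tested genes 65.4% of the calls were higher in TKO, 81.4% with deposited TPM and 54.8% after quantile normalisation.

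Smaller differences at 4 h ran in the same directions. The 2 times have no library in common, but they compare the same genotypes in 1 fit with a shared estimate of the spread. Dppa4 was at 195 and 188 scaled TPM in WT and at 129 and 143 in TKO (log2 change -0.49, limma adjusted p = 8.57e-05). Utf1 was at 148 and 151 in WT and at 109 and 111 in TKO (-0.44, limma adjusted p = 2.20e-04). Fbxo15 was at 208 and 205 in WT and at 296 and 278 in TKO (0.47, limma adjusted p = 1.00e-04). These 3 passed the test and stayed under the fold limit. Dppa2 also passed, at 92.8 and 91.0 in WT against 98.8 and 105 in TKO (0.15, limma adjusted p = 0.0231), and the ratio of Dppa2 to Dppa4 was 0.475 and 0.483 in WT and 0.763 and 0.735 in TKO. Dppa3 (0.17, interval 0.0018 to 0.33), Dppa5a (0.12, interval -0.071 to 0.30) and Prdm14 (0.10, interval -0.036 to 0.24) did not pass. At 4 h only the libraries of Dppa5a overlapped between genotypes. In 5 members every TKO library was lower, as in 40.0% of all tested genes, and in 4 every one was higher, as in 38.3%.

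**Figure D2:**
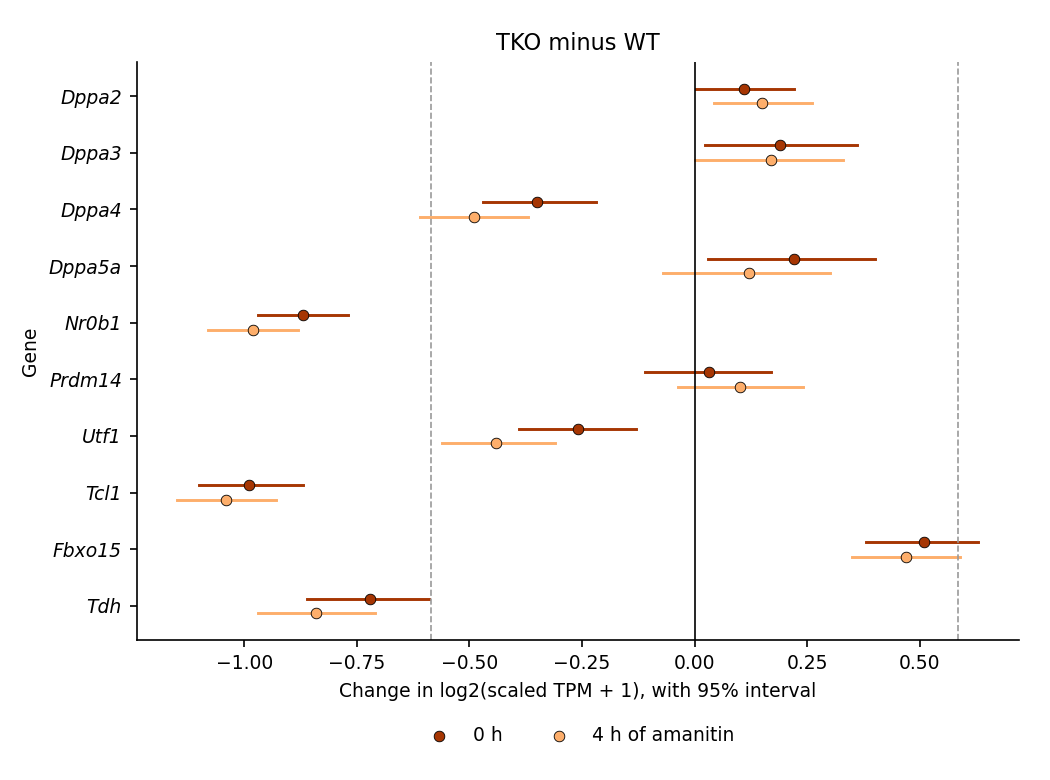
Change from WT to TKO in log2(scaled TPM + 1) for each gene, untreated (0 h) or with 4 h of α-amanitin; points are limma estimates from 2 libraries per group, bars are 95% intervals and dashed lines mark 1.5-fold. Nr0b1, Tcl1 and Tdh lie beyond the lower line at both times, and Fbxo15 lies near the upper line.

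The genes that work with Tdh were examined next. Gcat, which completes the route from threonine to glycine after Tdh, was at 55.1 and 54.6 scaled TPM in WT and at 26.2 and 25.9 in TKO at 0 h (log2 change -1.04, limma adjusted p = 1.24e-05). Gldc, the decarboxylase of the glycine cleavage system, was at 175 and 176 scaled TPM in WT and at 96.2 in both TKO libraries (-0.86, limma adjusted p = 4.54e-06). Both lay lower in every TKO library than in every WT library, as did Tdh and 42.7% of all tested genes. All 10 listed threonine, glycine and folate enzymes were tested. At 0 h 2 were called lower and 0 higher, against 5.45% and 10.4% of all tested genes. By adjusted p alone 5 were lower and 2 higher (28.3% and 27.8% of all genes), and the list median was -0.20. The 2 higher were Dld, from 88.5 in WT to 97.7 scaled TPM in TKO, and Mthfd2, from 75.8 to 87.4. At 4 h 4 were called lower and 0 higher, against 5.83% and 11.0% of all tested genes. The 4 were Gcat (-1.05), Gldc (-0.98), the mitochondrial formate producer Mthfd1l (-0.73) and Amt (-0.65), the aminomethyltransferase of glycine cleavage. Amt and Mthfd1l were both at -0.56 at 0 h, just inside the limit. By adjusted p alone 8 were lower and 0 higher at 4 h, against 30.4% and 29.0% of all tested genes. With deposited TPM 2 were called at 4 h, after quantile normalisation 3, and without TKO 4 h replicate 1 also 3. The values of Mthfd1 (-0.069) and Shmt2 (-0.12) did not pass at 0 h. Tdh to Gcat was 11.6 and 12.1 in WT at 0 h and 15.0 and 15.1 in TKO, so Gcat was lower relative to Tdh in TKO. At 4 h the ratio was 11.8 and 11.5 in WT and 14.4 and 13.0 in TKO. In the WT polyA libraries it was 7.59, 7.65 and 7.29, so it also differed between the 2 sets of WT libraries.

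**Figure D3:**
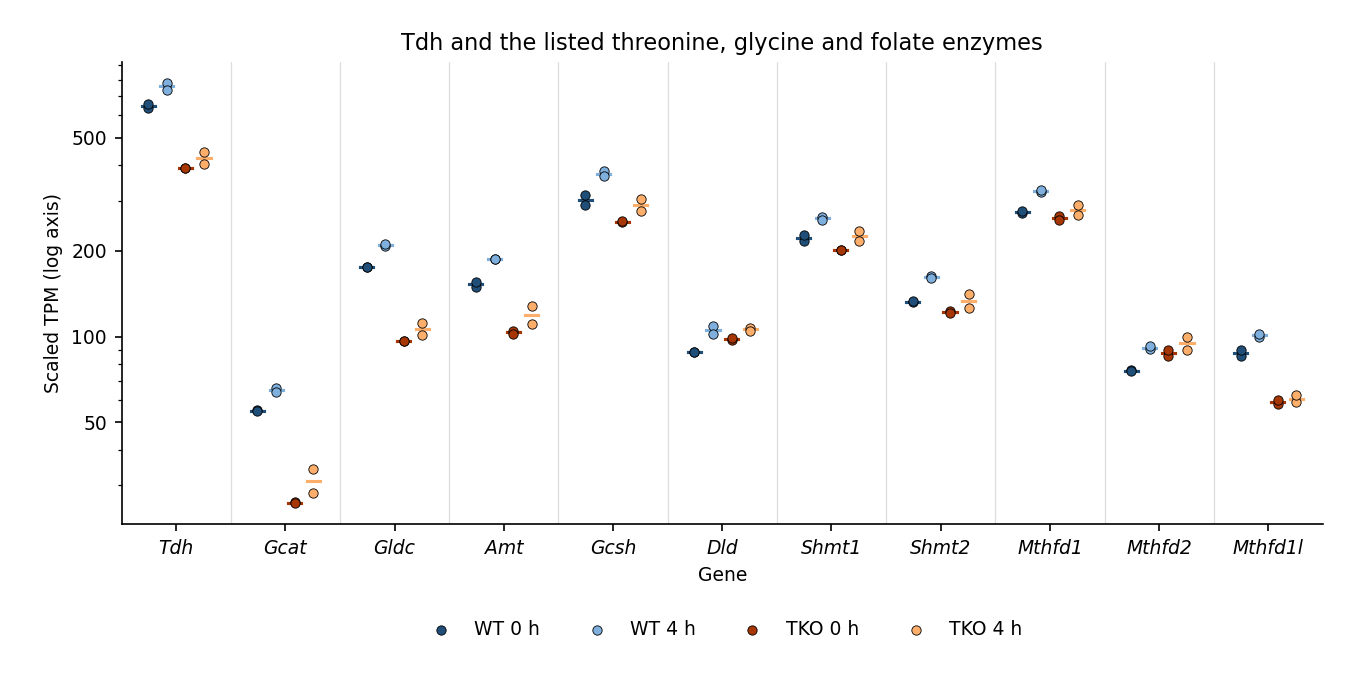
Scaled TPM (log axis) of Tdh and the 10 listed enzymes in the 8 ribodepleted libraries, with 1 point per library and a short line at each group mean. Tdh, Gcat, Gldc, Amt and Mthfd1l lie lower in the TKO libraries, while Mthfd1 and Shmt2 lie close between genotypes at 0 h. Dld and Mthfd2 lie slightly higher in TKO at 0 h.

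Partners of Tcl1 and Fbxo15 showed no shared direction. Among the kinases that Tcl1 binds, Akt1 went from 44.7 to 61.3 scaled TPM at 0 h (log2 change 0.45, limma adjusted p = 0.00159) and Akt2 from 37.5 to 33.9 (-0.14, limma adjusted p = 0.0357). Of the Tcl1 relatives Mtcp1 was at 5.59 and 5.51 scaled TPM, and Tcl1b1 to Tcl1b5 stayed under 1 scaled TPM in every group mean. The SCF core had 0 of 3 genes called, against 10.4% of all tested genes called higher and 5.45% lower at 0 h. Skp1a (0.22) and Cul1 (0.19) passed by adjusted p as higher at 0 h, and Rbx1 (-0.21) as lower.

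Relatives of Nr0b1 and Dppa5a were also compared. Esrrb, an orphan nuclear receptor of the pluripotency network, fell from 180 to 107 scaled TPM at 0 h (log2 change -0.74, limma adjusted p = 2.59e-06) and was at -0.77 at 4 h. Nr5a2 (-0.38) passed as lower and Nr6a1 (0.34) as higher at 0 h, both under the fold limit, and Nr0b2 and Nr5a1 were under 0.1 scaled TPM. Ooep, an oocyte KH-domain gene 7932 bases from Dppa5a, averaged 60.1 scaled TPM in WT against 45.9 in TKO (-0.38, limma adjusted p = 7.17e-04), against 0.22 for Dppa5a. The 3 listed Khdc1 genes were at or near 0.

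Among 14 other ESC-enriched genes, 13 were tested. At 0 h 1 was called higher and 1 lower, against 10.4% and 5.45% of all tested genes. At 0 h Eras, an ESC-specific Ras, was called lower (from 71.5 to 40.2 scaled TPM, log2 change -0.82), and the adhesion molecule Pecam1 was called higher (from 37.0 to 62.3, 0.74). By adjusted p alone 7 were lower and 2 higher, against 28.3% and 27.8% of all tested genes. Lin28a, which blocks let-7 maturation, was at -0.51 at 0 h and was called lower at 4 h (-0.61). With deposited TPM 0 of the 13 were called lower at 4 h. Dppa1 was near 0 in all groups, at most 0.114 scaled TPM as a group mean.

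To ask how the members respond when transcription is blocked, libraries at 4 h of α-amanitin were compared with those at 0 h. TPM is a share of each library, so a loss common to all transcripts cannot be seen, and a higher value means a larger share of the RNA that remained. In WT 0 members were called, against 2.10% of all tested genes. By adjusted p alone 7 of 10 were higher, against 21.9% of all tested genes. Tcl1 went from 86.4 and 83.1 to 107 and 103 scaled TPM (log2 change 0.31, limma adjusted p = 0.00605), and Dppa5a from 1541 and 1630 to 2045 and 1858 (0.30, limma adjusted p = 0.0226). All 4 h libraries lay above both 0 h libraries for these genes, as in 40.5% of all tested genes. Dppa3 (0.25), Nr0b1 (0.24), Tdh (0.23), Utf1 (0.23) and Dppa4 (0.19) also passed, while Dppa2 (0.087) and Fbxo15 (0.046) did not. Prdm14 alone was lower, from 10.7 and 10.6 to 9.35 and 9.49 scaled TPM (-0.16, limma adjusted p = 0.0661). Its 4 h libraries lay below both 0 h libraries, as in 32.4% of all tested genes.

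The number of members that passed depended on the scaling. Over all tested genes the median change was 0.029 with size factors, whereas it was -0.11 on deposited TPM and 0.041 on quantile-normalised values. Relative to that median Tcl1 was at 0.28, 0.26 and 0.15 under the 3 scalings and Nr0b1 at 0.21, 0.19 and 0.033. Tdh went from 0.20 and 0.18 to -0.0052. With deposited TPM 1 member (Dppa5a) passed as higher and 1 (Prdm14) as lower, and after quantile normalisation only Tcl1 passed. Over all tested genes 2735 passed as higher and 1964 as lower with size factors. With deposited TPM these were 397 and 3145, and after quantile normalisation 1505 and 1416, so the numbers moved for all genes and not for the members alone. Leaving out any 1 WT library also changed the number of members and of all tested genes that passed, in fits with 1 library in a group.

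In TKO 0 members were called, against 0.160% of all tested genes, and 0 passed by adjusted p as higher, against 0%. By unadjusted p under 0.05, 5 of 10 members and 3113 of the 12467 tested genes passed in either direction. Tcl1 changed most, from 42.0 and 42.4 to 48.8 and 52.5 scaled TPM (log2 change 0.26, limma adjusted p = 0.0825), followed by Dppa3 (0.23) and Dppa5a (0.20). The libraries of Dppa4, Utf1 and Fbxo15 overlapped between the times. In 6 members every 4 h library was higher, as in 32.8% of all tested genes, and in 1 every one was lower, as in 25.9%. TKO 4 h replicate 1 weighed on these values: without it 6 members passed, and 1546 of all tested genes passed as higher where 0 did with it. Voom on recovered reads passed 1 member, Tcl1 (adjusted p = 0.0339). Whether the response differed between genotypes was tested as an interaction, which called 0 members against 0% of all genes. The smallest limma adjusted p of a member was 0.672, for Utf1, at a difference of -0.18 on the log2 scale (95% interval -0.36 to 0.0062). No member passed by unadjusted p under 0.05, and 940 of all tested genes did, so no difference in response was detectable with 2 libraries a group.

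**Figure D4:**
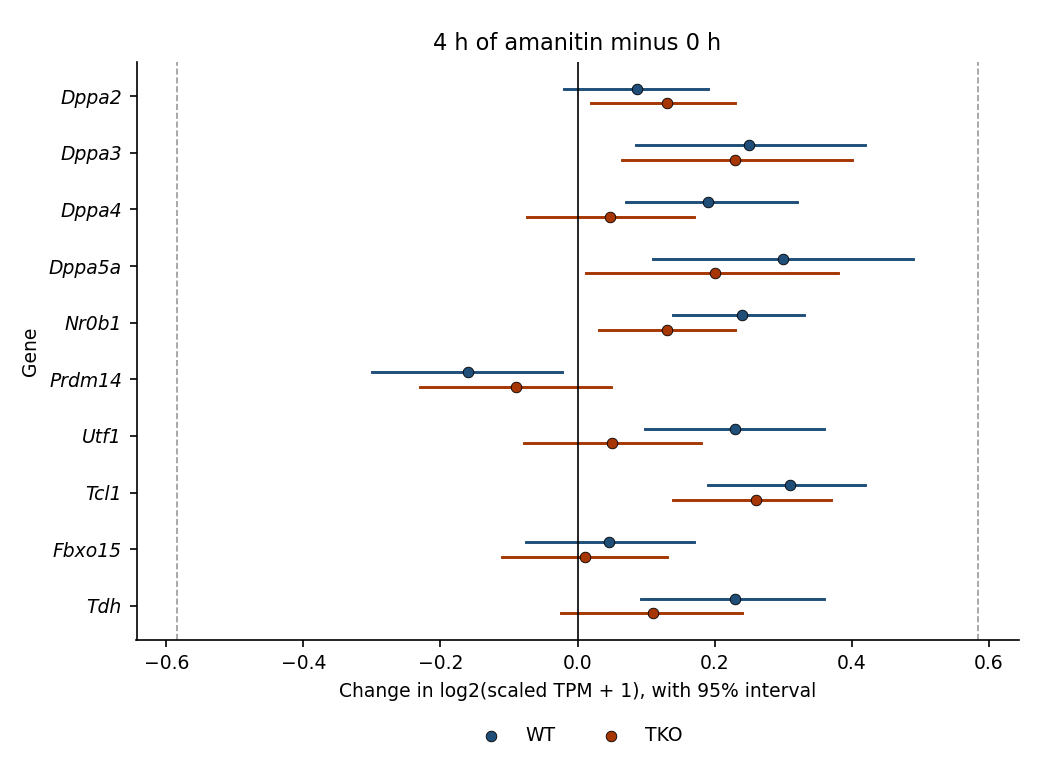
Change from 0 h to 4 h of α-amanitin in log2(scaled TPM + 1) for each gene in WT and TKO; points are limma estimates, bars are 95% intervals and dashed lines mark 1.5-fold. All 10 genes lie inside the dashed lines in both genotypes, and the WT and TKO intervals overlap for every gene.

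PolyA libraries of WT ESCs were compared with ribodepleted libraries of WT ESCs at 0 h, using only these 5 libraries and 12478 genes in the fit. The members split widely: 3 were called higher in polyA, against 18.7% of all tested genes, and 4 lower, against 16.4%. Dppa5a was at 8139, 8511 and 8229 deposited TPM in the polyA libraries, against 1589 and 1616 in the ribodepleted ones, and ranked 3 among all genes. Utf1 was at 606, 607 and 594 against 126 and 132 TPM. On the scale of this fit Dppa5a was 4.81-fold higher (log2 change 2.27, limma adjusted p = 5.51e-09) and Utf1 4.32-fold (2.11, limma adjusted p = 1.81e-09). Dppa2 was at 167, 164 and 171 against 87.6 and 87.2 TPM (log2 change 0.82). Dppa4 (0.50) and Prdm14 (0.36) passed as higher under the fold limit.

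Dppa3 had the largest difference among the members lower in polyA, at 43.0, 44.2 and 42.4 TPM against 113 and 119 (log2 change -1.51, limma adjusted p = 1.81e-08). Dppa5a to Dppa3 was therefore between 189 and 194 in the polyA libraries, against 13.6 and 14.1 in the ribodepleted ones. The counts of both genes are less certain because of their further genomic copies. Tdh was at 318, 317 and 302 against 660 and 653 TPM (-1.17). Tcl1 (-0.79) and Fbxo15 (-0.62) were called lower, and Nr0b1 (-0.24) passed as lower under the fold limit. The order of the members changed with it: in polyA Utf1 ranked above Tdh, and Dppa3 ranked below Tcl1. No groups of the 10 members overlapped, with 5 higher and 5 lower in every polyA library, as were 43.1% and 43.9% of all tested genes. The 2 sets differ in RNA selection and library preparation, and whether they share cultures is not given in the sources used here, so these cannot be told apart: Olig2, a neural transcription factor, was at 19.0 scaled TPM in the ribodepleted WT libraries and 0.0130 in polyA, and Zfp42, also called Rex1, was at 517 and 164.

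**Figure D5:**
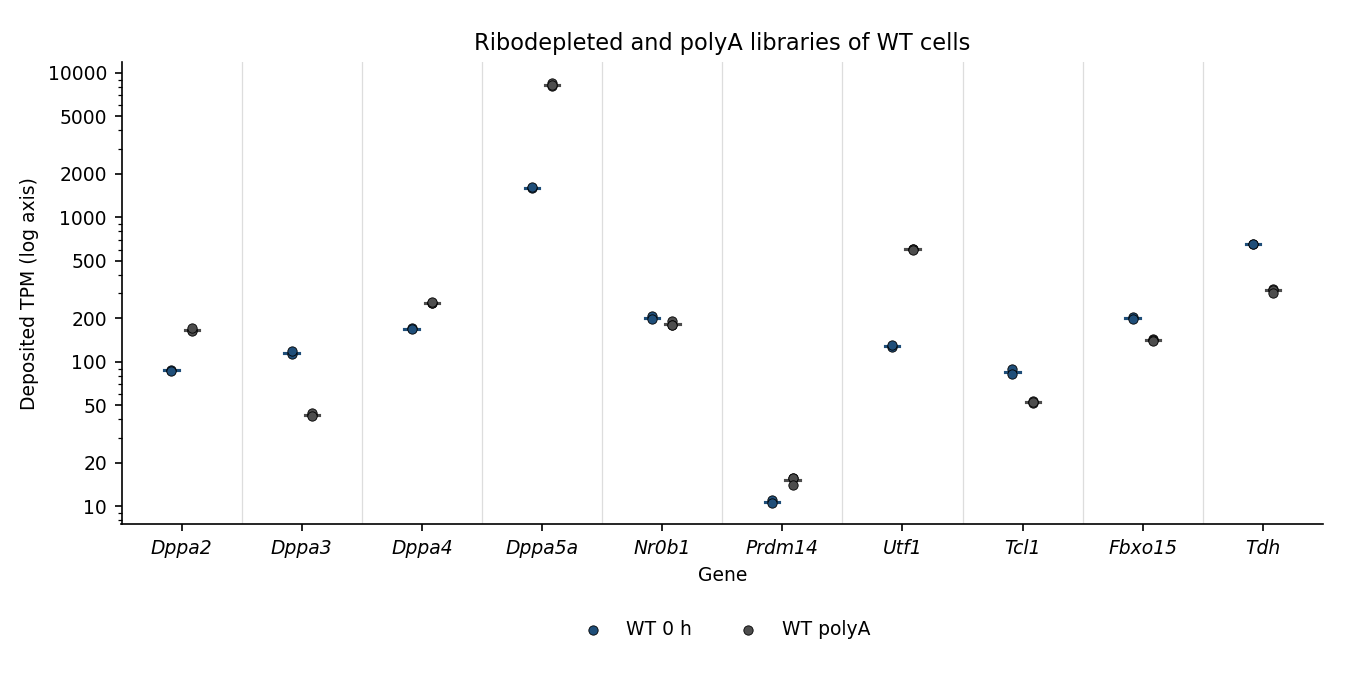
Deposited TPM (log axis) of the 10 genes in the 2 ribodepleted WT libraries at 0 h and the 3 WT polyA libraries, with 1 point per library and a short line at each mean. Dppa5a and Utf1 lie over 4-fold higher in polyA and Dppa3 and Tdh over 2-fold lower.

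The genes most like each member were found from the root mean square (RMS) distance between profiles of log2(scaled TPM + 1), each minus its mean over the 8 ribodepleted libraries. Dppa3 was nearest to Dppa5a (0.0269), which also had Dppa3 among its 3 nearest genes after Skp1a (0.0220) and Eif2b5 (0.0269). Nr0b1 was nearest to Gldc (0.0366), Sfxn1 (0.0367) and Anp32a (0.0378). Tcl1 was nearest to Adk (0.0358), Rasgrp2 (0.0509) and Gcat (0.0530), and Tdh to Lsm3 (0.0282), Arcn1 (0.0284) and Mtmr14 (0.0340). Gldc and Gcat thus appear among the nearest profiles of members, and Amt does not. The nearest gene was Ppie for Dppa2 (0.0199), Wdr31 for Dppa4 (0.0227), Rexo4 for Prdm14 (0.0199), Tfb1m for Utf1 (0.0233) and Cpne8 for Fbxo15 (0.0368). These distances cover 8 libraries that differ in genotype and treatment, so they include those differences, and they carry no test.

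Genes beside the members were compared in the same fit. Within 100 kb of a member the NCBIM37 annotation held 55 other genes, of which 35 were in the files and 17 were tested. At 0 h 2 of these were called higher in TKO and 2 lower, against 10.4% and 5.45% of all tested genes. Utf1 lay between 1 of each: Kndc1, 2252 bases away, fell from 3.17 to 1.44 scaled TPM (log2 change -0.77), and Adam8 rose from 1.48 to 3.92 (0.99), whereas Utf1 changed by -0.26. Ncoa2, a nuclear receptor coactivator 11942 bases from Prdm14, rose from 6.93 to 15.7 (1.07), with Prdm14 at 0.032. 1700034H14Rik, which lies on the other strand within Fbxo15 and outside its exons, fell from 28.7 to 15.1 scaled TPM (-0.88) while Fbxo15 rose. Near Dppa3, Gdf3 (-0.25) passed as lower, and Nanog (0.16) and Slc2a3 (0.0068) did not pass.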

How the data were processed

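RNA-seq was analysed from 8 ribodepleted and 3 polyA libraries, grouped by their titles. The deposited values are TPM, made by the authors from gene counts (HTSeq) after AfterQC, removal of ribosomal and transfer RNA reads with Bowtie2, Trimmomatic and STAR alignment to mm9 with RefSeq genes. Tool versions and the strand setting are not given in the sources used here. TPM was divided by median-of-ratios size factors, and genes with a mean above 1 entered a linear model of log2(scaled TPM + 1) in limma 3.58.1 (R 4.3.3, eBayes with a trend), without a replicate block. This scale understates the change of low genes. Called genes had an adjusted p under 0.05 (Benjamini-Hochberg over all tested genes) and a change over 1.5-fold. p-values are two-sided.

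The deposited TPM values lie on steps of whole reads, which were recovered for 100.000% of the 19869 genes above 0 (tolerance 1e-09). They gave the depths and a voom fit. Same-numbered libraries deviated together at r between -0.044 and 0.12, so numbers were not taken as pairs. Copies were sought with blastn 2.17.0, and promoters and gene positions were taken from RefSeq and the NCBIM37 annotation.

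The named genes were the 10 members, the Tet genes, at most 4 called genes of each list and comparison by largest change, the 3 nearest profiles of each member and genes within 100 kb. Other genes were named after their values were seen. A listed gene is not reported here. Members and lists were chosen with earlier results of these data known. The alternatives covered scaling, pseudocount, filter, trend, fold limit, block, voom and leaving out each library.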

Additional observations from a re-analysis of the deposited data

How the results depend on the processing

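Of 990 member values recomputed under alternatives, 886 kept their direction and side of the threshold, 47 no longer passed, 28 newly passed and 29 changed sign, of which 0 had an adjusted p under 0.05 as reported. By limma adjusted p alone 7 members passed at 0 h, 7 at 4 h and 7 in WT under α-amanitin. The last number was 2 with deposited TPM and 1 after quantile normalisation, where 397 and 1505 of all tested genes passed as higher, against 2735 with size factors. It also changed in fits without 1 WT library, which leave 1 library in a group. In TKO under α-amanitin it was 1 with voom and 0 to 6 over the fits without 1 library (6 without TKO 4 h replicate 1). The cause was not tested. The called members of TKO against WT stayed at 3 without any 1 library, and those of polyA at 7. With the replicate block Dppa5a at 0 h no longer passed (0.22, adjusted p = 0.0710), and the numbers, which correlated at -0.044 to 0.12, are shared only as numbers.

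The values that changed sign, with deposited TPM and then after quantile normalisation, were as follows. In WT under α-amanitin they were -0.071 and -0.0094 for Dppa2 and -0.11 and -0.13 for Fbxo15. In TKO they were -0.049 and -0.031 for Dppa4, -0.046 and -0.0027 for Utf1, and -0.086 and -0.058 for Fbxo15. In the interaction they were 0.040 and 0.045 for Dppa3, 0.012 and 0.076 for Tcl1, and 0.027 and 0.077 for Fbxo15. After quantile normalisation alone Prdm14 was at -0.028 at 0 h and -0.0052 at 4 h in TKO against WT. Over the fits without 1 library, TKO under α-amanitin ranged from -0.024 to 0.12 for Dppa4, -0.010 to 0.11 for Utf1 and -0.046 to 0.069 for Fbxo15, and the interaction from -0.0072 to 0.085 for Dppa2, -0.12 to 0.075 for Dppa3, -0.10 to 0.0004 for Tcl1 and -0.092 to 0.023 for Fbxo15. With 2 libraries a group and TPM relative to each library, depth and design limit the smaller changes.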

Other observations

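Regulators of primordial germ cells, a cell type in which Prdm14, Dppa3 and Utf1 are also known, did not move in 1 direction in TKO. Of 8 listed genes, all tested, 1 was called higher and 2 lower at 0 h, against 10.4% and 5.45% of all tested genes. Nanos3, an RNA-binding protein needed for germ cell survival, was at 22.1 and 19.2 scaled TPM in WT and at 10.1 and 11.1 in TKO (log2 change -0.90, limma adjusted p = 1.01e-04). Dnd1, another RNA-binding germ cell factor, was at 19.5 and 19.7 in WT and at 9.86 and 11.2 in TKO (-0.84, limma adjusted p = 2.17e-05). The receptor Kit was at 10.9 and 10.3 in WT and at 17.8 and 18.6 in TKO (0.73, limma adjusted p = 2.67e-05). Tfap2c (0.017) and Prdm1 (0.0050), which act with Prdm14 in germ cell formation, did not pass. At 4 h Kit (0.67) and its ligand Kitl (0.70) were called higher and Dnd1 (-0.87) lower, against 11.0% and 5.83% of all tested genes. After quantile normalisation 0 were called higher at 4 h, with Kit at 0.58 and Kitl at 0.53, and 2 lower, Dnd1 (-0.91) and Nanos3 (-0.61).

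Of 5 listed Zscan4 and Tcstv genes, which mark a rare state of ESC cultures that resembles the cleaving embryo, 2 had a mean above 1 scaled TPM. Both reached it through the TKO libraries alone, so that their values are given without a test. Tcstv3 averaged 0.119 scaled TPM in WT against 2.96 in TKO at 0 h. Tcstv1 was listed at 0 in both WT libraries at 0 h and at 3.25 in TKO. These genes belong to families of near-identical copies, so their counts are uncertain.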
